A study of Tachysurus ussuriensis with 12 samples.

Results

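Gill and kidney of the Ussuri catfish (Tachysurus ussuriensis, placed in Pseudobagrus in the series title), a freshwater bagrid catfish, were compared at 24 h of acute salinity stress in 6 RNA sequencing libraries, 3 of gill and 3 of kidney, out of 12 in the series. The libraries were chosen by the tissue and time in their labels. The other 6 libraries, 3 of each tissue at 0 h, were used as samples that had no part in the 24 h comparison. The labels give no strain, age, sex or salinity, and nothing in them tells whether each library is its own fish. The p-values therefore rest on the spread among these libraries alone, part of which may be technical. No group of 24 h without salinity stress is named, so the tissue difference at 24 h cannot be told apart from one at 24 h of holding alone.

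In freshwater fish the gill takes up salt from the water, excretes ammonia and exchanges gases across a thin epithelium that holds mitochondrion-rich ion-transporting cells, pavement cells and mucous cells over a cartilage and blood vessel frame. The kidney filters large volumes of plasma and reclaims salt into the blood to leave a dilute urine, and in bony fish it also houses blood-forming tissue. When the outside water becomes saltier, both organs are known to change their handling of ions and water. The deposited table names transcripts by assembler IDs and pairs none with a gene name, so no ion transporter, hormone receptor or cell type marker could be looked up, and the tissue labels could not be checked against marker genes. In whole tissue, fewer cells of a type and less RNA per cell cannot be told apart.

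Levels were deposited as FPKM, fragment counts scaled by the authors for transcript length and for the mapped fragments of a library. The tested rows were the 65457 of 84875 transcripts (77.1%) that reached 1 FPKM in at least 3 of the 6 libraries. FPKM summed to between 672918 and 689838 in gill and between 632249 and 648564 in kidney. An FPKM of 1 or more was reached by 57484 ± 1417 transcripts in gill and by 58155 ± 1375 in kidney (SD, n = 3 each; exact permutation p = 0.5, two-sided). Values above 0 were held by 78022 ± 895 transcripts in gill and 75825 ± 653 in kidney. An FPKM of 100 or more was reached by 661 ± 15.7 and 624 ± 19.2 (SD, n = 3 each). For both, exact permutation p was 0.1, two-sided, the smallest possible here. Libraries of the same tissue correlated at r = 0.915 to 0.920 in gill and 0.902 to 0.916 in kidney over the tested transcripts, whereas a gill and a kidney library correlated at 0.585 to 0.634. The first principal component, which separated the tissues, held 73.8% of the variance. Read totals are unknown, but sequencing depth relative to the mean of the 6 libraries, recovered from the steps between low values, lay between 0.874 (kidney replicate 2) and 1.13 (kidney replicate 1), so depth gave similar precision in both tissues.

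Gill and kidney differed in 24962 transcripts, which is 38.1% of those tested (limma on log2(FPKM + 1), Benjamini-Hochberg adjusted p under 0.05). Of these, 12080 were higher in gill (18.5% of those tested) and 12882 were higher in kidney (19.7%). A difference of at least 2-fold on this scale was found in 17095 called transcripts, 26.1% of those tested. The 3 gill values and the 3 kidney values did not overlap for 32881 transcripts, 50.2% of those tested, and 24902 of the 24962 called transcripts were among them. The median difference over all tested transcripts was -0.10 (gill minus kidney, log2), so the centre of the table lay slightly to the kidney side. The small majority of kidney calls was not stable. It turned to gill with no filter (13604 against 13577), with a block by library name number (9685 against 8665) and in 4 of the 6 fits without a single library (without gill replicate 1 or 3, or kidney replicate 2 or 3). It also moved with the scaling: median-ratio scaling, which moved that median to -0.01, gave 13448 higher in gill and 11115 higher in kidney, and equal totals, with a median of -0.17, gave 11310 and 14453.

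The largest differences were mostly toward gill. Among called transcripts the median difference was 1.45 on the log2 scale for those higher in gill (quartiles 0.96 and 2.09) and -1.21 for those higher in kidney (quartiles -1.71 and -0.85). Above a difference of 2 (4-fold) 3336 called transcripts favoured gill and 2126 favoured kidney. Above 4 (16-fold) the counts were 517 and 161, and above 5 (32-fold) they were 231 and 41. Beyond a difference of 7, 38 transcripts were higher in gill and 1 was higher in kidney. The share of gill among the called transcripts thus went from 48.4% with no minimum to 61.1% above 4-fold and 84.9% above 32-fold. When the test itself was made against a 2-fold change, 6340 transcripts passed (9.69% of those tested), and 3866 of these were higher in gill against 2474 in kidney. The excess of gill above 32-fold held in all 20 alternative settings; with a pseudocount of 0.1 the counts there were 1502 and 627.

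**Figure D1:**
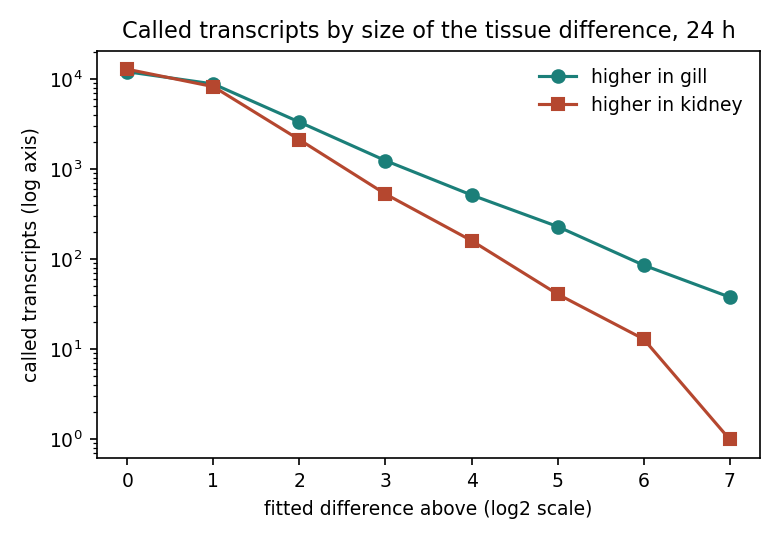
Number of called transcripts (vertical log axis) with a fitted tissue difference above each size on the log2(FPKM + 1) scale (horizontal axis), for those higher in gill (circles) and those higher in kidney (squares). The lines start close together, at 12080 and 12882, and part with size, to 231 and 41 above a difference of 5.

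The share of transcripts called rose with level up to 1000 FPKM. Of transcripts with a mean below 2 FPKM over the 6 libraries, 31.7% were called, and of those between 10 and 50 FPKM 54.1% were called. Between 100 and 1000 FPKM the share was 65.0%, with 205 higher in gill and 175 higher in kidney. At 1000 FPKM or more, 19 of 33 transcripts (57.6%) were called, 12 higher in gill and 7 higher in kidney. Calls of at least 2-fold rose less at low levels, from 25.3% of transcripts below 2 FPKM to 28.2% between 10 and 50 FPKM. They made up 38.3% between 100 and 1000 FPKM and 48.5% at 1000 FPKM or more. The median absolute difference stayed between 0.49 and 0.65 on the log2 scale in the bins up to 1000 FPKM and was 0.94 above it.

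The transcript with the largest difference of all was also the most abundant transcript of gill. TRINITY_DN22884_c0_g2_i1_1 had 10793, 9764 and 15437 FPKM in gill replicates 1, 2 and 3, and 30.3, 14.1 and 4.19 FPKM in kidney replicates 1, 2 and 3. The lowest gill library thus stood far above the highest kidney library. Groups that do not overlap were a condition for naming a transcript by ID here. The means were 11998 ± 3022 in gill and 16.2 ± 13.2 in kidney (SD, n = 3 each), a 741-fold ratio of means and a log2 difference of 9.77 (SE 0.60; limma adjusted p = 4.54e-05). It alone held 1.45% to 2.24% of all FPKM in the gill libraries and ranked 6635 in kidney. At 0 h, in libraries that did not choose it, it stood at 11194 ± 1973 FPKM in gill and 25.4 ± 9.66 in kidney (SD, n = 3 each), and the tissue difference of 24 h was not called different from that of 0 h (0.99, SE 0.72; limma adjusted p = 0.771).

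The next gill transcript by level among those called was TRINITY_DN16573_c0_g1_i1_3. Its FPKM was 4113, 3378 and 5483 in gill replicates 1, 2 and 3, and 10.4, 3.76 and 1.94 in kidney replicates 1, 2 and 3. The groups did not overlap, as the choice required. The order of the libraries within each tissue was that of the most abundant gill transcript. Its log2 difference was 9.61 (SE 0.47; limma adjusted p = 1.71e-05), and the gill mean was 807 times the kidney mean. At 0 h the means were 3860 ± 468 FPKM in gill and 12.1 ± 3.16 in kidney (SD, n = 3 each).

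Among the transcripts higher in kidney, TRINITY_DN12302_c0_g1_i1_3 had the largest difference. It had 650, 92.4 and 918 FPKM in kidney replicates 1, 2 and 3, and 0.940, 0.656 and 0.440 FPKM in gill replicates 1, 2 and 3. All kidney libraries were above all gill libraries, as the choice required, but kidney replicate 2 was several times below the other kidney libraries. The log2 difference was -7.84 (SE 0.79; limma adjusted p = 0.000378), and without kidney replicate 2 it was -8.86. The kidney libraries also spread widely at 0 h, with 587, 1.71 and 517 FPKM in replicates 1, 2 and 3. The low value was in kidney 0 h replicate 2, a library with a low median of 1.26 FPKM. The gill libraries of 0 h had 0.319 FPKM or less.

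The kidney transcript with the highest level among those called was TRINITY_DN26526_c0_g1_i1_4. It had 6651, 6007 and 6219 FPKM in kidney replicates 1, 2 and 3, and 338, 484 and 346 FPKM in gill replicates 1, 2 and 3. The libraries of each tissue lay close together, with means of 6292 ± 328 in kidney and 389 ± 82.3 in gill (SD, n = 3 each). That is a 16.2-fold ratio of means and a log2 difference of -4.03 (SE 0.17; limma adjusted p = 9.1e-06). At 0 h the gill mean was 91.5 ± 16.6 FPKM and the kidney mean 4190 ± 1669 (SD, n = 3 each), and the difference between times was not called (1.40, SE 0.37; limma adjusted p = 0.259). The calls of these 4 transcripts held in all 20 alternative settings.

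**Figure D2:**
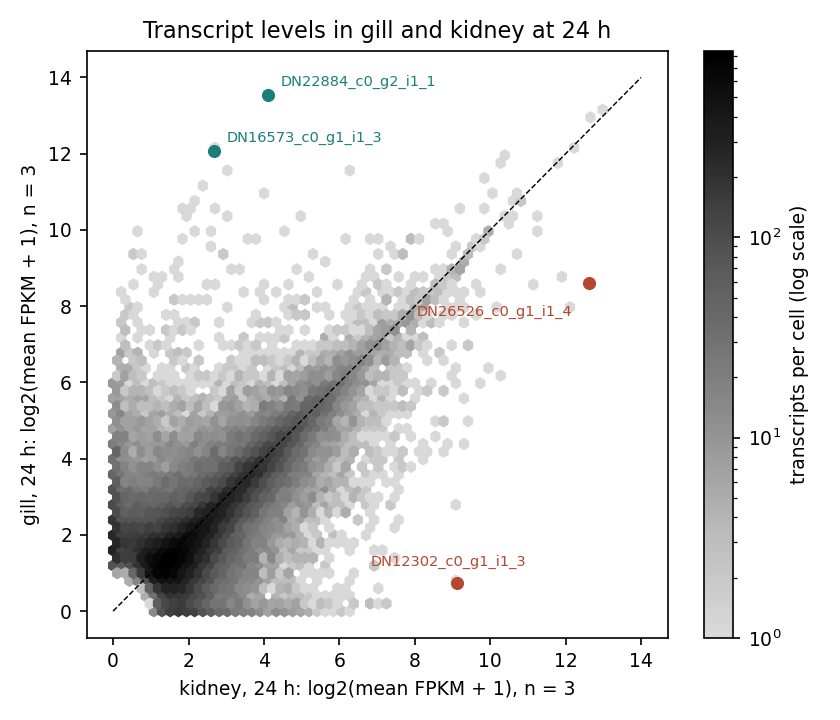
Mean level of each tested transcript in the 3 kidney libraries (horizontal axis) and the 3 gill libraries (vertical axis) of 24 h, as log2(mean FPKM + 1), with the shade of a cell giving the number of transcripts in it. The dashed line marks equal levels; the 4 named transcripts are labelled without the shared start of their IDs, and those of gill lie far above the line at 11998 and 4325 FPKM.

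The most different transcripts of gill reached higher levels in their tissue than those of kidney did in theirs. The 10 largest differences toward gill ran from 8.64 to 9.77 on the log2 scale, with gill means of 623 to 11998 FPKM and kidney means of 0.435 to 16.2 FPKM, and all 10 were among the 100 most abundant transcripts of gill. The 10 largest differences toward kidney ran from 6.14 to 7.84, with kidney means of 81.0 to 553 FPKM and gill means of 0.0636 to 0.678 FPKM, and 1 of them was among the 100 most abundant of kidney. Because 1 was added to each value, a transcript of low level cannot show as large a difference on this scale. The transcripts were chosen by that difference, and those toward gill had the larger ones. Their higher levels therefore follow in part from the choice and are a description. All 20 had the same direction at 0 h and were called there in a fit to the 6 libraries of 0 h. Of all tested transcripts, 76.7% had the same direction at 0 h and 22.7% were called there. The call of TRINITY_DN12302_c0_g1_i1_3 at 0 h was close to the limit (limma adjusted p = 0.0474).

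The most abundant transcripts of the 6 libraries were compared by the part of the total they held. The 100 most abundant of each library held 20.7% ± 1.62 of FPKM in gill and 17.9% ± 0.174 in kidney (SD, n = 3 each). The libraries did not overlap, and the exact permutation test gave p = 0.1, two-sided, the smallest that 3 against 3 libraries allow. For the 10 most abundant the shares were 8.01% ± 0.730 and 7.06% ± 0.0285, and for the 1000 most abundant 40.8% ± 1.85 and 37.2% ± 0.721 (SD, n = 3 each; exact permutation p = 0.1 for both). At 0 h the 100 most abundant held 21.1% ± 0.642 in gill and 19.2% ± 1.39 in kidney (SD, n = 3 each; exact permutation p = 0.2). For the 10 most abundant the order at 0 h was the reverse, with 7.53% ± 0.223 in gill and 8.02% ± 1.19 in kidney (SD, n = 3 each; exact permutation p = 0.7), and for the 1000 most abundant the shares at 0 h were 41.6% ± 1.16 and 39.1% ± 1.59 (SD, n = 3 each; exact permutation p = 0.2).

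Ranked by tissue mean, the lists of the 100 most abundant transcripts shared 51, which is 51% of each list. Of these 51, 44 differed by less than 2-fold, 39 were not called, 8 were called higher in gill and 4 higher in kidney. The largest difference among them was 1.60 toward gill and -1.35 toward kidney on the log2 scale. The 51 were chosen for a high level in both tissues on these same values, which favours small differences, so the counts are a description. Of all tested transcripts 38.1% were called, and of those between 100 and 1000 FPKM 65.0% were. Among the 10 most abundant, 4 were common to both lists and were not called. The most abundant of these 4 had 9393, 8397 and 9208 FPKM in gill replicates 1 to 3 and 7929, 8229 and 8091 FPKM in kidney replicates 1 to 3 (difference 0.15, SE 0.19; limma adjusted p = 0.583). It ranked second in gill and first in kidney. The second of the 4 carries the same assembler component number as the first and had means of 7614 ± 520 FPKM in gill and 6883 ± 126 in kidney (SD, n = 3 each). The closest pair of means was 3717 ± 42.7 FPKM in gill and 3597 ± 119 in kidney (SD, n = 3 each), at rank 7 in both tissues, with a difference of 0.05 (SE 0.14; limma adjusted p = 0.825).

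The lists also held transcripts with large tissue differences, more of them in the gill list. The counts that follow are for whole lists. Among the 51 shared transcripts are 8 of those called higher in gill and 4 of those called higher in kidney. Of the 100 most abundant transcripts of gill, 55 were called higher in gill, 30 of them by more than 16-fold, and 23 ranked beyond 10000 in kidney. Of the 100 most abundant of kidney, 39 were called higher in kidney, 8 of them by more than 16-fold, and 2 ranked beyond 10000 in gill. Of all tested transcripts 18.5% were called higher in gill and 19.7% higher in kidney. Of all 65457 tested, 517 were called higher in gill by more than 16-fold and 161 higher in kidney. An excess toward gill at this size was thus present in the whole table too. Of the 585 with a mean between 100 and 1000 FPKM over the 6 libraries, 205 were called higher in gill and 175 higher in kidney, together 65.0%. Each list was chosen on the level in its own tissue, so these counts describe the lists and are no test. The gill list held 18.9% to 21.9% of FPKM in gill libraries and 11.4% to 11.8% in kidney libraries. The kidney list held 17.6% to 17.9% in kidney libraries and 12.5% to 13.2% in gill libraries. At 0 h, 83 of the gill list were again among the 100 most abundant of gill, and 84 of the kidney list among those of kidney.

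Several single transcripts show this contrast. The ninth of the gill list had 3170, 2942 and 2888 FPKM in gill replicates 1 to 3 and 95.4, 63.6 and 65.0 FPKM in kidney replicates 1 to 3 (difference 5.33, SE 0.17; limma adjusted p = 3.34e-06). The tenth had 3010, 2549 and 3283 FPKM in gill and 15.3, 4.11 and 2.43 FPKM in kidney, again highest in kidney replicate 1. The fifth of the kidney list had 4833, 4353 and 4956 FPKM in kidney replicates 1 to 3 and 244, 317 and 217 FPKM in gill replicates 1 to 3 (difference -4.20, SE 0.16; limma adjusted p = 6.74e-06). Its gill level was thus low against kidney but at rank 217 still among the abundant transcripts of gill. The sixth of the kidney list had 3723, 3510 and 3709 FPKM in kidney and 389, 552 and 352 FPKM in gill, with gill replicate 2 the highest of the gill libraries, as in the third and the fifth.

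**Figure D3:**
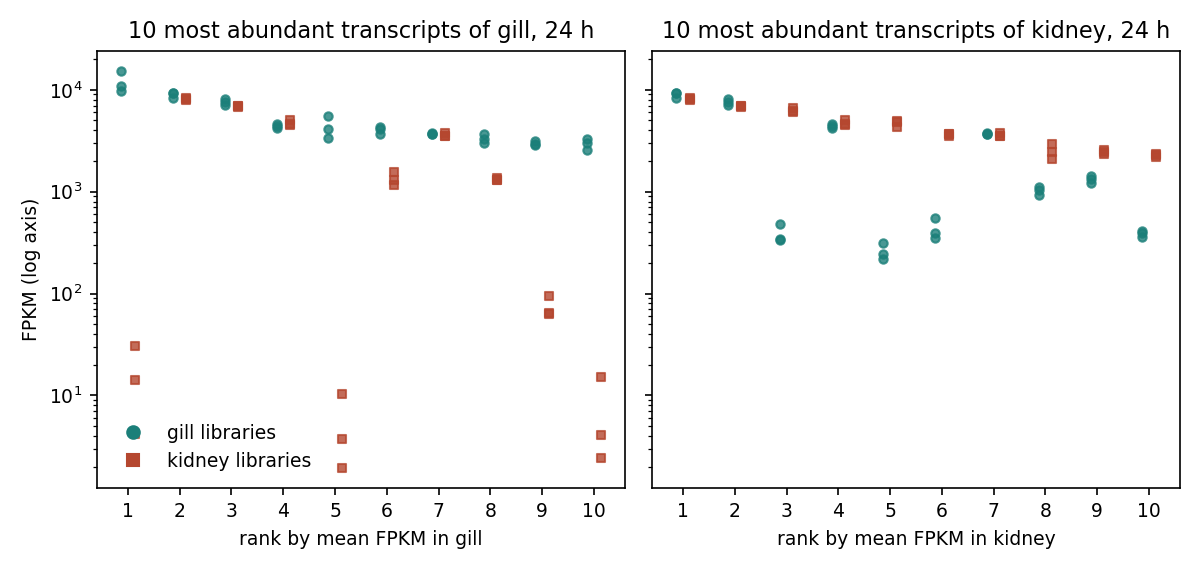
FPKM in each of the 6 libraries of 24 h (vertical log axis) for the 10 most abundant transcripts of gill (left) and of kidney (right), ranked by the tissue mean, with circles for gill and squares for kidney libraries. Ranks 1, 5 and 10 of gill lie at or below 30.3 FPKM in every kidney library, whereas the lowest gill value of the kidney list is 217 FPKM.

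Tissue-limited transcripts were defined by an FPKM of 1 or more in all 3 libraries of a tissue and below 0.1 in all 3 of the other. By this rule 1605 of the 84875 transcripts were limited to gill at 24 h and 961 to kidney. Of these, 1108 and 651 were listed at 0 in all 3 libraries of the other tissue. A value listed at 0 need not mean that the RNA was missing. Most were of low level: the median was 3.25 FPKM (quartiles 2.19 and 5.56) for gill and 3.04 FPKM (quartiles 2.14 and 4.53) for kidney. Together they held 1.22% to 1.26% of FPKM in gill libraries and 0.711% to 0.761% in kidney libraries. Values just inside the limits were 1.00009 FPKM for gill and 1.00099 for kidney in the tissue where present, and just outside 0.9995 and 0.9998 FPKM. In the other tissue they were 0.0992 and 0.0997 inside and 0.10018 and 0.10004 outside. At the other end, 34683 transcripts reached 1 FPKM in all 6 libraries, and 11683 of these (33.7%) were called, close to the 38.1% of all tested transcripts.

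The most abundant transcript limited to kidney had 118, 101 and 111 FPKM in kidney replicates 1, 2 and 3 and 0.0726, 0.0437 and 0.0744 FPKM in gill replicates 1, 2 and 3. It was the only one of either tissue with a mean above 100 FPKM. The second was listed at 0 in all 3 gill libraries and had 54.9, 87.9 and 60.3 FPKM in kidney. The most abundant transcript limited to gill had 62.9, 51.3 and 79.5 FPKM in gill and 0.0575, 0.00469 and 9.15e-14 FPKM in kidney. The third of gill was listed at 0 in all 3 kidney libraries of 24 h with 65.7, 60.9 and 59.7 FPKM in gill, but had 0.298, 1.12 and 0.587 FPKM in kidney at 0 h, when gill stood at 115, 179 and 160 FPKM. It therefore lay outside the limit at 0 h.

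The 6 libraries of 0 h had no part in choosing these transcripts. Of the 1605 limited to gill at 24 h, 780 (48.6%) met the same limits at 0 h and 1595 (99.4%) had a higher mean in gill than in kidney at 0 h. Of the 961 limited to kidney, 387 (40.3%) met them at 0 h and 949 (98.8%) had a higher mean in kidney. In at least 1 kidney library of 0 h, 93 of the gill transcripts reached 1 FPKM, and in at least 1 gill library 62 of the kidney transcripts did. In their own tissue at 0 h, 1218 of the 1605 gill transcripts (75.9%) reached 1 FPKM in all 3 libraries, and 556 of the 961 kidney transcripts (57.9%) reached 1 FPKM in all 3 kidney libraries of 0 h. Kidney 0 h replicate 2 has a low median, 1.26 FPKM against 1.85 to 2.22 in the other 11 libraries, and without it 727 (75.7%) did, and 504 (52.4%) met both limits. Without that library 877 (54.6%) of the gill transcripts met both limits.

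At 24 h the transcripts that led in gill were present in kidney at traces that differed between its libraries. The highest traces of those that led in kidney were spread more evenly over the gill libraries. For the 100 transcripts with the largest called difference toward gill and a gill mean of 20 FPKM or more, the median level in kidney replicates 1, 2 and 3 was 0.347%, 0.162% and 0.0819% of the gill mean. Kidney replicate 1 had the highest of the 3 kidney values for 73 of the 100, and the order replicate 1, then 2, then 3 held for 51. The share of all tested transcripts with this order is not given here. In the kidney libraries of 0 h the medians were 0.277%, 0.348% and 0.286%. For the 100 transcripts chosen likewise toward kidney, the medians in gill replicates 1, 2 and 3 were 0.318%, 0.206% and 0.280% of the kidney mean, and the highest value lay in replicate 1 for 37, replicate 2 for 29 and replicate 3 for 34. In the gill libraries of 0 h the medians were 0.0925%, 0.146% and 0.445%, with the highest value in replicate 3 for 57 of the 100. Both sets were picked from these libraries after their values were seen, so the levels are a description. For TRINITY_DN22884_c0_g2_i1_1 the difference was 10.38 on the log2 scale without kidney replicate 1 and 9.08 without kidney replicate 3, against 9.77 with all libraries. The source of the RNA counted in kidney was not tested.

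**Figure D4:**
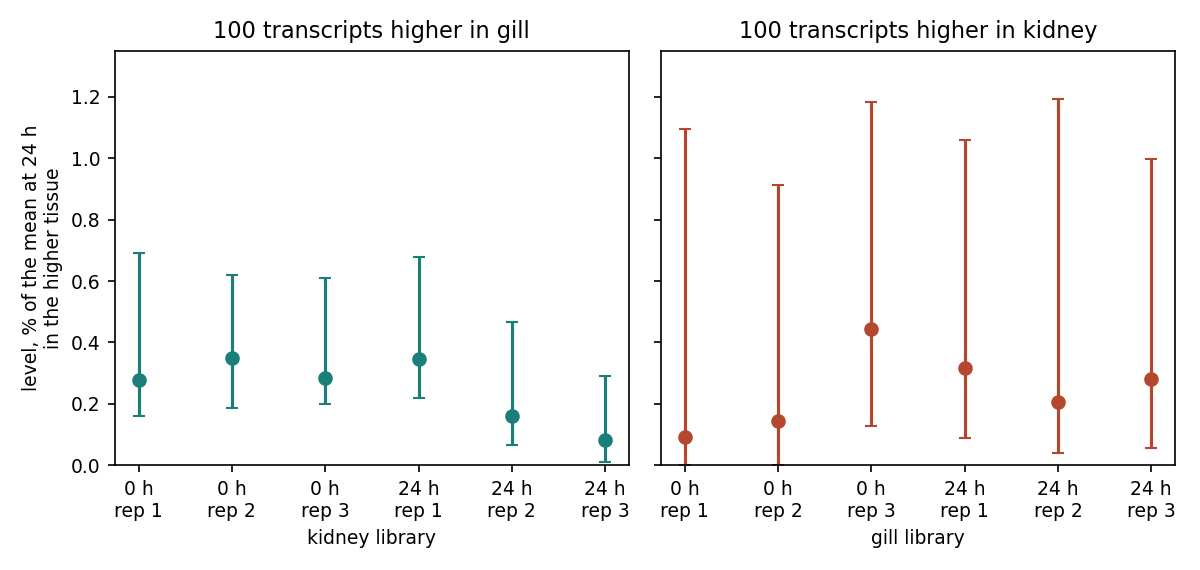
Level of the 100 transcripts most different toward gill in each kidney library (left) and of the 100 most different toward kidney in each gill library (right), as percent of the mean at 24 h in the higher tissue; points are medians over the 100 transcripts and bars run between the quartiles. In kidney at 24 h the medians are 0.347%, 0.162% and 0.0819% for replicates 1, 2 and 3.

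The tissue difference of 24 h was largely present at 0 h. Of the 24962 transcripts called at 24 h, 23616 (94.6%) had the same direction at 0 h, against 76.7% of all tested transcripts. In a fit to the 6 libraries of 0 h over the same transcripts, 14879 were called (22.7% of those tested), and these held 12758 of the 24962 in the same direction and 19 in the opposite one. By direction, 7620 of the 12080 higher in gill (63.1%) and 5138 of the 12882 higher in kidney (39.9%) were found again. These shares rest in part on kidney 0 h replicate 2, since without it 19226 transcripts were called at 0 h (29.4%) and the shares were 66.9% and 56.0%. The median difference of the transcripts higher in gill at 24 h was 1.45 at 24 h and 1.33 at 0 h on the log2 scale. For those higher in kidney it was -1.21 and -0.86, with all 3 kidney libraries of 0 h. The transcripts were chosen at 24 h, and a choice by size there alone gives smaller sizes at 0 h.

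The difference between the times was tested in a fit to all 12 libraries. The tissue difference at 24 h was called different from that at 0 h in 32 of the 65457 transcripts (0.0489%; limma adjusted p under 0.05). Gill minus kidney was higher at 24 h in 11 of the 32 and lower in 21. In this fit 5751 unadjusted limma p-values were under 0.05, and a transcript that was not called cannot be taken as unchanged. Of the 32, 31 were called between tissues at 24 h, 16 higher in gill and 15 higher in kidney, and 9 had opposite directions at 0 h and 24 h. Of all tested transcripts 38.1% were called between tissues at 24 h, and 76.7% had the same direction at 0 h and 24 h. The 32 were chosen by a contrast that holds the 24 h difference, among rows filtered on 24 h levels, so these counts are no test. The largest rise of gill minus kidney was that of a transcript with 149, 95.4 and 109 FPKM in gill at 0 h and 1082, 878 and 891 FPKM in gill at 24 h, while no kidney library held more than 2.02 FPKM (change 3.62, SE 0.41; limma adjusted p = 0.0256). The transcript with the largest fall had 140, 78.4 and 256 FPKM in gill at 0 h and 4.65, 6.21 and 5.94 FPKM at 24 h, and 0.984 FPKM or less in every kidney library (change -4.47, SE 0.48; limma adjusted p = 0.0256). The count of 32 rests on the design and on single libraries: it was 4 with the replicate number as a block and 0 with that number as a block within each time (5572 unadjusted limma p-values under 0.05), and it was 0 without gill 24 h replicate 1 or 3, kidney 0 h replicate 3 or kidney 24 h replicate 2, 1 without gill 0 h replicate 1 or 3 or gill 24 h replicate 2, 12 without kidney 0 h replicate 1 or kidney 24 h replicate 1 or 3, and 196 without gill 0 h replicate 2.

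**Figure D5:**
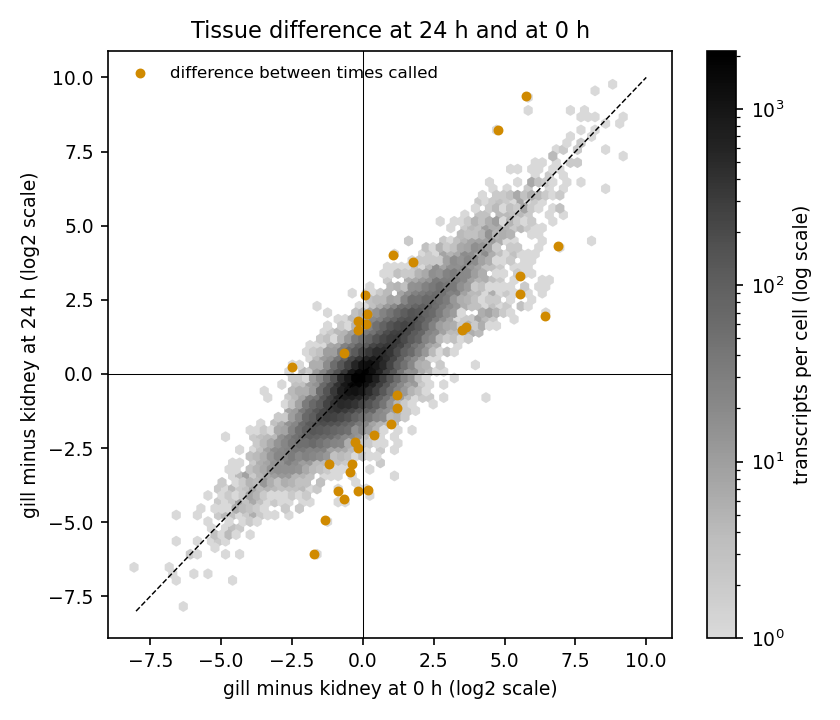
Fitted gill minus kidney difference at 0 h (horizontal axis) and at 24 h (vertical axis) for the tested transcripts, on the log2(FPKM + 1) scale, with the shade of a cell giving the number of transcripts. Most lie along the dashed line of equal differences; the 32 orange points are transcripts whose difference was called different between the times.

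The direction of the tissue difference went with the number, 1 to 4, that ends each transcript ID and for which the sources used here give no meaning. Of called transcripts ending in 2, 84.6% were higher in gill (5396 against 986), and of those ending in 4, 66.6% (3816 against 1917). Of those ending in 1 the share was 29.8% (1873 against 4421), and of those ending in 3 it was 15.2% (995 against 5558). The median difference of all tested transcripts was 0.41, 0.10, -0.29 and -0.44 on the log2 scale for 2, 4, 1 and 3. The limited transcripts showed the same split: 926 of the 1605 limited to gill ended in 2 and 3 ended in 3, while 590 of the 961 limited to kidney ended in 3 and 3 ended in 2. Of all 84875 transcripts, 22599 ended in 1, 20582 in 2, 21178 in 3 and 20516 in 4. For each number, the libraries of the series with the highest mean level of its transcripts were listed in order. For 2 these were gill 0 h replicates 1 and 3, then gill 24 h replicate 3. For 3 these were kidney 24 h replicate 1, kidney 0 h replicate 1 and kidney 24 h replicate 3. For 4 these were gill 0 h replicate 2, then gill 24 h replicates 1 and 2. For 1 these were kidney 24 h replicates 3 and 2, then gill 24 h replicate 2, in which the mean of its transcripts was 1.94 on the log2(FPKM + 1) scale against 1.68 and 1.70 in gill replicates 1 and 3. The part of the ID number in the counts higher in gill and higher in kidney was not tested.

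With the final ID number kept in its name, every assembler gene was present with 1 transcript, so no gene could have transcripts called in both directions. With that number left out, 1296 joined names held transcripts called in both directions. The tissue differences of the 9921 pairs so joined correlated at r = -0.05. Whether transcripts joined in this way belong to 1 gene is not known, so the 1296 are not a count of genes. Of the larger units of the assembler, called components and also named with the number, 2193 held at least 2 called transcripts. In 866 of these all called transcripts were higher in gill, in 968 all were higher in kidney, and in 359 both directions occurred. In the 4941 components with exactly 2 tested transcripts, the tissue differences of the pair correlated at r = 0.568 across components, which are not independent replicates and whose members can share reads.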

How the data were processed

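The authors deposited FPKM values for 84875 assembled transcripts in 12 columns named by library, per the file headers. Per the labels' protocols, TRIzol was used to extract RNA. Reads were trimmed with Trimmomatic, per the submitters' processing notes. For assembly, alignment and counting, tools and settings are not given in the sources used. FPKM values are not counts, so no count model was fitted. Values above 0 but below 1e-06 made up 1.11% of the 24 h table, and 9.37% were listed at 0.

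Rows that reached 1 FPKM in 3 or more of the 24 h libraries were tested with limma 3.58.1 in R 4.3.3 (eBayes with trend) on log2(FPKM + 1), which understates the change of low transcripts. Gill minus kidney was fitted to the 6 libraries with no block; calls were made at a Benjamini-Hochberg adjusted p under 0.05 over all tested rows. Data of 65457 transcripts with few changed were simulated. For gill against kidney at 24 h, 28% of changes of 1 and 67% of changes of 2 (log2) were recovered with 7 false calls. For the difference between times 33% and 70% were recovered with 5. In the data 38.1% were called between tissues at 24 h, which makes the adjusted cutoff more lenient than in the simulation. The simulated shares therefore do not give the sensitivity of that comparison. Single values per library were compared by an exact permutation test. Relative depth came from ratios of low values in the 15 pairs of libraries, with a largest residual of 0.019 (log2).

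At 24 h, libraries that carry 1 number in their titles deviated from their tissue means together (r = 0.143, 0.117 and 0.116, others at most -0.03). Deviations cancel out within a tissue, so positive values for some pairs make the others negative on average. The title numbers were taken as a possible pairing and used as a block in alternative fits only. The main fits and the permutation tests used no block, and the labels do not say that these libraries share a fish. Named transcripts are, in each direction, the called one with the largest difference and the one with the highest level (the next highest where these are the same), among those whose groups do not overlap; with no gene names, at most 2 IDs in each direction are named. The libraries, lists and rules were chosen with earlier results of these data known. Alternatives covered the pseudocount, filters, scaling, blocks, trend, weights, a 2-fold test and leaving out each library.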

Additional observations from a re-analysis of the deposited data

Results flagged for a closer look

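The test of the difference between the times called 32 transcripts in which gill minus kidney at 24 h was not that at 0 h, 11 with a higher and 21 with a lower difference at 24 h, which is a difference of 1 contrast between 2 times. The change between times had a median size, sign left out, of 2.57 (log2). The median absolute tissue difference of the 32 was 2.69 at 24 h and 1.04 at 0 h, and 23 of them had the larger difference at 24 h. Over all tested transcripts that median was 0.54 at 24 h and 0.50 at 0 h. The tested rows had to reach 1 FPKM in at least 3 libraries of 24 h, which leaves out transcripts present at 0 h only. The 32 were also chosen by this contrast, so their sizes at the 2 times are a description and no test. Without kidney 0 h replicate 2, the library with the low median, 74 were called, 31 of the 32 among them. With the title number as a block 4 were called, and 0 with that block within each time, without gill 24 h replicate 1 or 3, without kidney 0 h replicate 3 or without kidney 24 h replicate 2 (limma; 4589 to 6418 unadjusted p-values under 0.05 in these fits).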

How the results depend on the processing

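The counts between tissues at 24 h (24962 called, 12080 higher in gill, 12882 higher in kidney) stayed within 1.5 times in 18 of 20 alternatives each. The exceptions were a filter of 5 FPKM in 3 libraries, which tests 23173 transcripts and called 12876 (6360 and 6516), and the test against a 2-fold change (6340; 3866 and 2474). The replicate block by title number gave 24825 and that by library name number, of which the tissues share 1 and 2, gave 18350; neither changed a call of a named transcript. No transcript called both ways changed direction in any alternative. Without single libraries the counts ran from 20572 to 21989, from 10463 to 11263 higher in gill and from 10109 to 11470 higher in kidney, with fewer samples in the fit. Limited transcripts numbered 291 (gill) and 135 (kidney) with 5 FPKM where present, 3316 and 2214 with below 0.5 FPKM in the other tissue, and 1871 to 2153 and 1128 to 1394 without single libraries. The rule asks for all libraries of each tissue, so leaving out a library cannot lower these counts. The share of the 100 most abundant was higher in gill by 2.80 percentage points, and by 2.11 to 3.69 without single libraries. Genes called in both directions numbered 0 by construction, since each has 1 row, and components called in both directions numbered 359. With the final ID number left out, 1296 joined names were called in both directions. Pairs joined in this way correlated in their tissue differences at r = -0.05, so the 1296 are not a count of genes. The 32 transcripts that differed between times became 6 with a pseudocount of 0.1, 51 with quantile normalization, 4 with a replicate block, 0 with the block within each time and 0 to 196 without single libraries; the cause was not tested. Using components, and blocking within each time, were choices made after seeing the data. With no read totals, the counting error of single FPKM values cannot be given.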
